A study of Mus musculus with 96 samples.

Results

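The last straight part of the mouse proximal tubule, in the outer stripe of the outer medulla (PTS3), was compared with the thin descending limb of long loops in the outer medulla (DTL2). Samples were taken by their labelled segment, which gave 13 of the 93 samples in the transcript table and 6 of its 53 mice. PTS3 was represented by 6 microdissected pieces from 3 mice and DTL2 by 7 pieces from 3 mice, with 2, 2 and 3 pieces per DTL2 mouse. The animals of both groups were untreated male C57BL/6 mice, aged 6 to 8 weeks, kept on normal chow and water, and no transgene, agent or surgery is recorded for either. The study charted gene expression in glomeruli and all tubule segments by RNA-seq from very small inputs. Values are in TPM, a relative transcript abundance that corrects for transcript length, so levels may be compared between genes. A piece is a short length of tubule that can carry other cells with it, and in such bulk samples fewer cells of a type and less RNA per cell cannot be told apart.

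In long-looped nephrons PTS3 runs directly into the descending thin limb at the border of the outer and inner stripe. The cells before that border are tall, rich in mitochondria and peroxisomes, and carry a brush border with which they take up filtered solutes and secrete organic ions and drugs. The cells after it make a thin, water-permeable wall, and this limb belongs to the countercurrent system that concentrates the urine.

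The labels were checked against defining transcripts. Aqp1, the water channel of proximal and descending limb cells, was at 389.8 to 582 TPM in the PTS3 mice and at 6095 to 7022 TPM in the DTL2 mice. Lypd2 and Fst, the markers set for the long descending limb in the outer medulla, were at 3939 to 6440 and 2133 to 3241 TPM in DTL2, while in PTS3 Lypd2 was listed at 0 in each mouse and Fst at no more than 0.085 TPM. Lypd2 averaged 5494 TPM in the thin ascending limb, so it does not tell that limb from DTL2, and both markers were far lower in the inner medullary long limb (46.8 and 3.11 TPM). The early proximal sugar and lactate carriers Slc5a2 and Slc5a12 were listed at 0 in each PTS3 mouse. Slc14a2, the urea transporter of the short descending limb, averaged 4.63 TPM in DTL2, and the thick limb carrier Slc12a1 averaged 1.28 TPM. All 6 mice carried Aqp1, and each DTL2 mouse carried Lypd2 and Fst. Aqp1 averaged 519 TPM in the cortical straight part of the proximal tubule, so it does not tell that part from PTS3. The PTS3 label was not checked against that part here.

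Pieces of the same segment were alike, with a median Pearson correlation of log2(TPM + 1) across genes of 0.976 within a PTS3 mouse and 0.974 between PTS3 mice, and of 0.937 and 0.932 for DTL2. Between the segments the median was 0.812; genes are not independent replicates. The DTL2 mice listed 20104 to 21168 genes at 1 TPM or more and the PTS3 mice 11533 to 11845. Odorant and vomeronasal receptor genes, known from sensory neurons, made up 221 to 306 of the genes at 1 TPM or more in DTL2 and 2 to 5 in PTS3. At 10 TPM or more the segments were closer, with 9212 to 9469 genes in DTL2 and 6180 to 6518 in PTS3, and gene groups are therefore described below from members whose mean reached 10 TPM in either segment.

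Differences were tested with limma on log2(TPM + 1), with the mouse as the replicate. They are given on that scale as PTS3 minus DTL2, so a negative value means a higher level in DTL2. A gene was called when its Benjamini-Hochberg adjusted p was below 0.05 and the difference was at least 1. Of 33793 genes tested, 13527 (40.0%) were called, 1301 (3.85%) higher in PTS3 and 12226 (36.2%) higher in DTL2. Among the 9870 genes that reached 10 TPM in either segment, 977 (9.90%) were higher in PTS3 and 5243 (53.1%) higher in DTL2. Each gene list is to be read against these shares.

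The split depends on scaling. In PTS3 the 10 most abundant genes took 20.4% to 25.6% of all TPM and Kap alone 6.33% to 8.34%, whereas in DTL2 the 10 most abundant took 9.12% to 10.3%. The median difference was -0.71 over all genes tested and -1.13 over those at 10 TPM or more, and rescaling each mouse by its median ratio over 9949 shared genes moved these to -0.41 and -0.22. PTS3 then held 26.8% of the calls instead of 9.62%, and 48.4% under quantile normalization. All 977 PTS3 calls at 10 TPM or more were also made after rescaling (9.90% of those tested), and 2750 of the DTL2 calls (27.9%). These genes, called as deposited and after rescaling, are referred to as called under both scalings. The log2 factors divided out were -0.56 to -0.37 in the PTS3 mice and 0.47 to 0.53 in the DTL2 mice. Rescaling thus moved differences towards PTS3 and could hardly remove a PTS3 call, so the second scaling restricts only the DTL2 calls. After rescaling alone, 1973 genes at that level were called higher in PTS3.

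**Figure D1:**
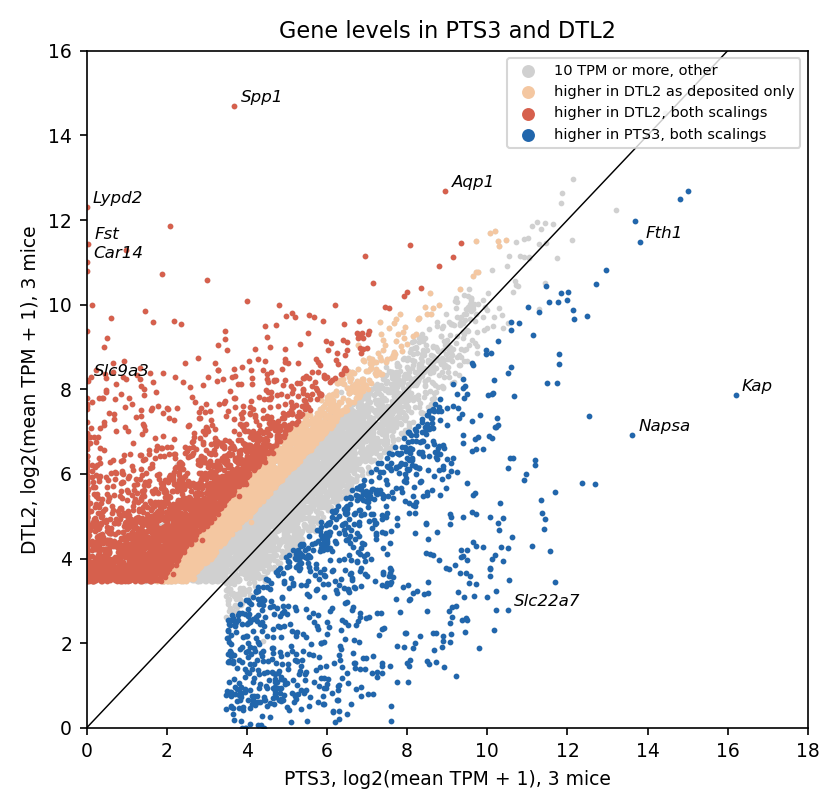
Mean level of each gene at 10 TPM or more in either segment, as log2(mean TPM + 1), in PTS3 (horizontal axis) and DTL2 (vertical axis), over 3 mice each, with the line of equal levels. Blue points are the 977 genes called higher in PTS3 and red points the 2750 called higher in DTL2 under both scalings; orange points were called higher in DTL2 only as deposited.

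The genes with the largest differences towards DTL2 included several that encode secreted or cell-surface proteins. Spp1, which encodes the phosphoprotein osteopontin, was at 27926, 21121 and 29864 TPM in the 3 DTL2 mice and at 9.29, 6.24 and 20 TPM in the 3 PTS3 mice. The groups were far apart, and the difference was -11.42 (SE 0.56, adjusted p = 1.37e-21). Lypd2, a member of the Ly6 family of small surface proteins, was at 6440, 4724 and 3939 TPM in DTL2 and listed at 0 in PTS3, a fitted difference of -12.24 (SE 0.65, adjusted p = 1.50e-20) that depends on the pseudocount. Fst encodes follistatin, which binds and blocks activins; it was at 3241, 2133 and 2985 TPM in DTL2 and at 0, 0.085 and 0 TPM in PTS3 (-11.37, SE 0.39, adjusted p = 4.80e-27). In single pieces Fst ranged from 1708 to 3271 TPM over 7 DTL2 pieces and from 0 to 0.17 TPM over 6 PTS3 pieces. Apela, the gene of a peptide ligand of the apelin receptor, was at 4157, 3991 and 3019 TPM against 2.25, 3.29 and 4.07 TPM (-9.84, SE 0.23, adjusted p = 5.37e-33). Angpt2, a ligand of the endothelial receptor Tek, was at 659.8, 548 and 319.9 TPM against 0.205, 0.5 and 0.335 TPM (-8.55, SE 0.38, adjusted p = 3.33e-23). The level in the 3 DTL2 mice varied more for Angpt2 than for Apela, but no PTS3 mouse came near it.

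Ion and acid-base proteins stood beside them. Car14, a membrane-bound carbonic anhydrase, was at 2584, 1188 and 2359 TPM in DTL2 and listed at 0 in the 3 PTS3 mice, with a fitted difference of -10.91 (SE 0.42, adjusted p = 2.89e-25). Slc4a11, a membrane transporter of the bicarbonate transporter family, was at 2718, 2432 and 2393 TPM against 1.65, 0.35 and 0.91 TPM (-10.55, SE 0.41, adjusted p = 4.70e-25). The lowest DTL2 pieces of these genes were at 1007 and 2226 TPM. Ckmt1, the mitochondrial creatine kinase, was at 796, 853 and 814 TPM against 1.59, 0 and 0 TPM (-9.34, SE 0.24). Plet1 (-9.83, SE 0.20), Pcolce (-8.77, SE 0.34), Tmem86a (-8.31, SE 0.42) and Cntf (-8.25, SE 0.56) completed the 12 largest differences. Pcolce enhances procollagen processing and Cntf is a neurotrophic cytokine; their DTL2 means were 594 and 351 TPM. Aqp1 had a smaller difference (-3.77, SE 0.51, adjusted p = 2.43e-08) and was present in both segments; at 10 TPM or more it was the one aquaporin higher in DTL2, while Aqp4, Aqp7 and Aqp11 were higher in PTS3 at 26.7, 64.7 and 80.2 TPM against 0.572, 4.23 and 3.98 TPM.

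**Figure D2:**
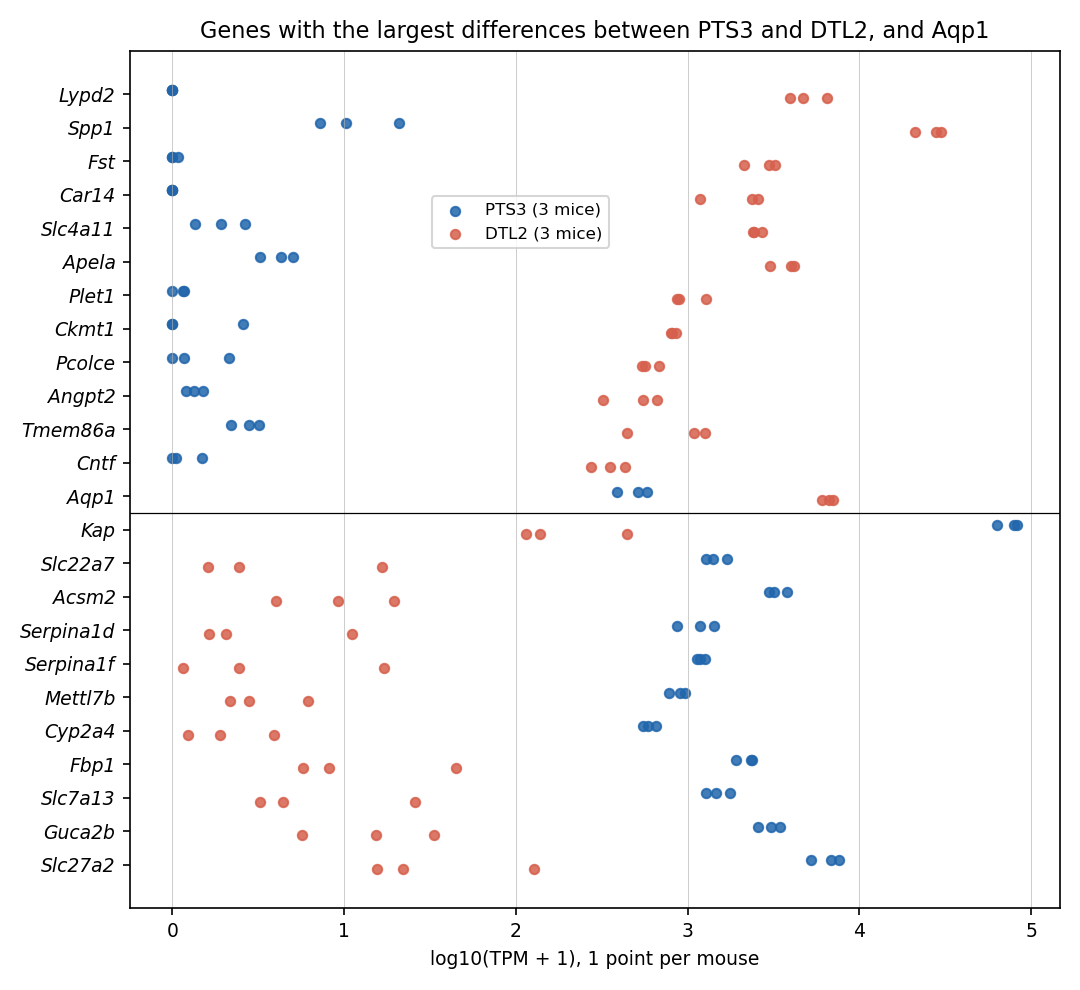
Level in each mouse, as log10(TPM + 1), of the 12 genes with the largest difference towards DTL2, of Aqp1 and of 11 of the 12 towards PTS3; blue points are the 3 PTS3 mice and red points the 3 DTL2 mice. That no gene overlaps between the segments was a condition of their choice; the DTL2 points of the genes higher in PTS3 are spread out, with mouse 1 the highest for each of the 11.

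These genes did not share a single course along the loop. The same DTL2 mice were used for tests against the short descending limb (DTL1, 3 mice), where 28.2% of the genes tested were called, and against the inner medullary long limb (DTL3, 3 mice), where 9.58% were called; because DTL2 enters each test, the values are given side by side and are not independent. Fst averaged 6.4 TPM in DTL1 and 3.11 TPM in DTL3, and its level in DTL2 was higher than in either. DTL2 minus DTL1 was 8.63 (SE 0.39, adjusted p = 1.27e-21) and DTL2 minus DTL3 was 9.49 (SE 0.39, adjusted p = 4.43e-23). Car14 and Cdh13 had the same shape, with 1.25 and 12.5 TPM in DTL1 and 0.393 and 4.12 TPM in DTL3, beside 2044 and 310.2 TPM in DTL2. Lypd2 was low in DTL1 and DTL3 (14.2 and 46.8 TPM) but at 5494 TPM in the thin ascending limb. Apela and Plet1 were also high in DTL3, at 3932 and 858 TPM, and did not pass the test there, with DTL2 minus DTL3 at -0.09 (SE 0.23, adjusted p = 0.844) and 0.22 (SE 0.20, adjusted p = 0.503). Angpt2 was higher in DTL1 (2204 TPM) than in DTL2 (509 TPM), at -2.15 (SE 0.38, adjusted p = 1.55e-05). Ckmt1, Pcolce, Tmem86a, Spp1 and Slc9a3 were also present in the medullary thick ascending limb, at 313, 536, 638, 4352 and 129.9 TPM. Several DTL2 genes were present at the start of the proximal tubule and at or near 0 at its end. Car14 was at 407 TPM in the first part of the proximal tubule (PTS1) and at 70.6 TPM in its cortical straight part (PTS2), and was listed at 0 in PTS3. The PTS3 minus PTS2 difference of Car14 was -6.11 (SE 0.38, adjusted p = 8.34e-17), in a comparison where 4.70% of genes were called. Slc9a3 (38.4, 14.9 and 0.015 TPM) and Ppargc1a (50.3, 12.7 and 1.69 TPM) took the same course over PTS1, PTS2 and PTS3, with PTS3 minus PTS2 at -3.95 (SE 0.30) and -2.41 (SE 0.19).

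**Figure D3:**
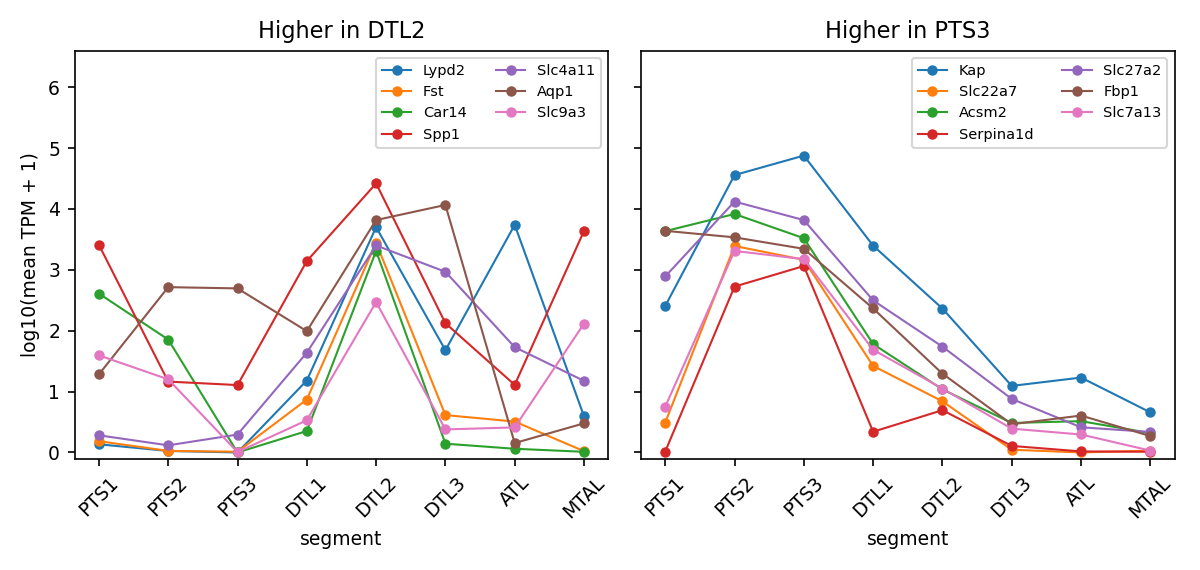
Mean level, as log10(mean TPM + 1), of 7 genes higher in DTL2 (left) and 7 genes higher in PTS3 (right) in 8 segments of the proximal tubule and loop, over 3 to 5 mice per segment. Fst and Car14 peak in DTL2, Aqp1 is also high in DTL3 and Lypd2 also in the ascending thin limb (ATL), while the genes higher in PTS3 are successively lower in DTL1, DTL2 and DTL3, except Serpina1d, which is lower in DTL1 than in DTL2.

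The genes with the largest differences towards PTS3 included several of lipid, drug and sugar handling. Kap, the androgen-regulated kidney protein of male mice, was at 63323, 83372 and 79431 TPM in the 3 PTS3 mice and at 441, 113 and 137 TPM in the 3 DTL2 mice (9.40, SE 1.02, adjusted p = 1.02e-10). Slc22a7, an organic anion transporter, was at 1687, 1282 and 1410 TPM against 15.7, 1.44 and 0.61 TPM (9.12, SE 0.45, adjusted p = 1.15e-21). Acsm2, a medium-chain acyl-CoA synthetase, was at 3800, 2959 and 3170 TPM against 18.4, 8.2 and 3.03 TPM (8.94, SE 0.76, adjusted p = 7.97e-14). In these 3 genes mouse 1 was the highest of the DTL2 mice. The serine protease inhibitor genes Serpina1d and Serpina1f averaged 1155 and 1190 TPM in PTS3 and 3.95 and 5.88 TPM in DTL2. Mouse 1 carried most of these DTL2 means, with 10.1, 0.635 and 1.06 TPM for Serpina1d and 16, 0.16 and 1.45 TPM for Serpina1f. It was also the highest DTL2 mouse for other genes higher in PTS3, described further below, so their DTL2 means lean on it. Several members of this Serpina1 cluster, Serpina1d among them, are near-identical, as are Cyp2a4 and Cyp2a5, so the split of reads between such copies is uncertain. Fbp1, an enzyme of glucose synthesis, averaged 2215 TPM against 18.7 TPM (8.31, SE 0.61). Slc7a13, an acidic amino acid transporter (8.26, SE 0.49), Guca2b, the peptide uroguanylin (8.18, SE 0.51), Slc27a2, a fatty acid carrier and very-long-chain acyl-CoA synthetase (8.03, SE 0.58), the cytochrome P450 gene Cyp2a4 (8.32, SE 0.47) and Mettl7b (8.35, SE 0.42) were also among the 12 largest. By TPM the gap was also wide for Napsa, an aspartic protease (12562 against 119.5 TPM), and for Acy3, an aminoacylase (5917 against 165 TPM). Fth1, the ferritin heavy chain, differed less, at 14289 against 2843 TPM (2.34, SE 0.12).

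The sequences before the start sites of these genes were searched because Hnf4a, a nuclear receptor that regulates proximal genes, was itself higher in PTS3. Hnf4a was at 129.9, 105 and 105 TPM in PTS3 and at 12.6, 4.62 and 10.2 TPM in DTL2 (3.60, SE 0.31, adjusted p = 1.81e-13). Both strands of the 250 bases before each RefSeq gene start (GRCm38.p6) were searched for CAAAGTNCA, a short form of the HNF4 element. It was present in 2.66% of 715 matched promoters of the 977 genes higher in PTS3, in 0.589% of 2037 promoters of genes higher in DTL2 under both scalings, in 0.926% of 7562 promoters of all genes at 10 TPM or more, and in 1.21% of all 27025 promoters. The AP-1 element TGANTCA was present in 5.59%, 4.71%, 4.13% and 6.87% of the same sets, and the grainyhead element AACCNGTT in 1.4%, 1.23%, 1.51% and 1.71%. These shares are descriptions of letters and were not tested. Of the 12 genes with the largest difference towards PTS3, 9 had a promoter in the table and 1 of these held the AP-1 letters; of the 12 towards DTL2, 8 had one and 2 held them. None of these 17 windows held the letters of either other element. The windows with a match are printed with those of Kap and Spp1, the most abundant genes called in each direction, from 5′ to 3′ on the gene's strand, ending at the base before the start, with the AP-1 matches in capitals.
Serpina1d (chr12:103773634-103773883, minus strand): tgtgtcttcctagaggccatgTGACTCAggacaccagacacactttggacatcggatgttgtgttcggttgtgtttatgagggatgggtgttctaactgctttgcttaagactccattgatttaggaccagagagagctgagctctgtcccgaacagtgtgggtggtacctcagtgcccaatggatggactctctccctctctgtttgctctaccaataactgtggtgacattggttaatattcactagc
Plet1 (chr9:50494275-50494524, plus strand): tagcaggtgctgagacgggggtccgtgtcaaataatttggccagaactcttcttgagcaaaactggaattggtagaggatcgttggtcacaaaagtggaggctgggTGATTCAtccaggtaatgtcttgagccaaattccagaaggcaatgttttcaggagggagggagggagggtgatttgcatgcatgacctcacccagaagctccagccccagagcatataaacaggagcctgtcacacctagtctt
Cntf (chr19:12765633-12765882, minus strand): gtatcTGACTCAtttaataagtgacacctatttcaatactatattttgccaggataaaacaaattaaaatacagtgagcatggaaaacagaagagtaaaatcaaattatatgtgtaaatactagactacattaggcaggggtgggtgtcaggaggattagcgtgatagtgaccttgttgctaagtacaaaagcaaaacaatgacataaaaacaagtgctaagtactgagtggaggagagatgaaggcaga
Kap (chr6:133853668-133853917, minus strand): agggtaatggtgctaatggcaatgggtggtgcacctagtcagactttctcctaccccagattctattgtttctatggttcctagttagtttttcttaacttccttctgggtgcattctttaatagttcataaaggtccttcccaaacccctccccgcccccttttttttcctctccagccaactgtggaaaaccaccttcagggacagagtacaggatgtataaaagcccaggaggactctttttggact
Spp1 (chr5:104434861-104435110, plus strand): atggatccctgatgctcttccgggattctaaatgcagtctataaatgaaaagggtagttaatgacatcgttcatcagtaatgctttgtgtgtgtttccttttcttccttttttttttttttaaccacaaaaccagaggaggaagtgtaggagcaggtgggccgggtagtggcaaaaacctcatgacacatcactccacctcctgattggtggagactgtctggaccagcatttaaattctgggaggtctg
The match begins 229 bases before the start in Serpina1d, 144 in Plet1 and 245 in Cntf, so it lies in the first gene higher in PTS3 and in the other two higher in DTL2. The windows of Kap and Spp1 hold none of the letters searched.

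Nearly all organic ion transport genes were higher in PTS3. Of 33 listed organic ion transport genes, 24 reached 10 TPM, of which 22 were higher in PTS3 and 1 in DTL2. All genes at that level had shares of 9.90% and 53.1%. The median difference was 5.46 on the list, beside -1.13 over all genes at that level. The urate transporter Slc22a12 was at 732, 673 and 686 TPM in PTS3 and at 6.15, 3.12 and 2.11 TPM in DTL2 (7.59, SE 0.45). The organic cation transporter Slc22a2 was at 403, 326 and 394 TPM against 4.24, 0.855 and 0.377 TPM (7.54, SE 0.34). Slc22a18, Slc17a1 and Slc17a3 had the same form, with 1024, 754 and 817 TPM in PTS3 and 7.49, 11 and 7.71 TPM in DTL2. The exception was the carnitine transporter Slc22a5, at 24.5 TPM in PTS3 and 56.5 TPM in DTL2 (-1.18, SE 0.26), whose call was lost after rescaling (-0.24, adjusted p = 0.375). Slc22a28 and Slc22a30, close copies of each other, averaged 166 and 269 TPM in PTS3 and may share reads.

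Glucose, phosphate and amino acid carriers differed in both directions. Among 10 carriers listed for glucose and phosphate at 10 TPM or more, 6 were higher in PTS3 and 2 in DTL2. The 6 include Slc5a8, which carries monocarboxylates such as lactate and not glucose or phosphate. The sodium-coupled carriers Slc5a1, Slc5a8 and Slc5a10 and the fructose carrier Slc2a5 averaged 38.5, 118, 125 and 99 TPM in PTS3 and 1.42 to 2.39 TPM in DTL2. The facilitative glucose carrier Slc2a1 ran the other way, at 6.29, 7.6 and 7.76 TPM in PTS3 and 350.1, 311 and 278 TPM in DTL2 (-5.26, SE 0.24, adjusted p = 1.64e-22). Of 17 amino acid carriers, 10 were higher in PTS3 and 5 in DTL2 (4 under both scalings). On both lists the DTL2 counts were below the shares over all genes at 10 TPM or more, 53.1% as deposited and 27.9% under both scalings. The PTS3 counts were above the share of 9.90%. Slc3a1, the heavy chain of the cystine transporter, averaged 679 against 7.58 TPM (7.46, SE 0.36), and its relative Slc3a2 averaged 21.8 against 103 TPM (-2.23, SE 0.19). The neutral amino acid carrier Slc1a5 was at 0, 0.095 and 0.545 TPM in PTS3 and 111, 104 and 134 TPM in DTL2 (-6.65, SE 0.49).

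Most acid-base and sodium pump genes were higher in DTL2. Slc9a3, the apical sodium/proton exchanger, was at 0, 0.045 and 0 TPM in PTS3 and 299, 265 and 319.7 TPM in DTL2 (-8.18, SE 0.33, adjusted p = 1.63e-24). Slc9a8, another exchanger of this family, was at 591, 439 and 569 TPM in PTS3 and 44.3, 28.9 and 24 TPM in DTL2 (4.04, SE 0.33). The cytosolic carbonic anhydrase Car2 averaged 4.34 TPM in PTS3 and 289 TPM in DTL2 (-5.80, SE 0.18), while mitochondrial Car5a averaged 28.1 and 1.24 TPM (3.71, SE 0.29). Of the 9 genes on this list at 10 TPM or more, 2 were higher in PTS3 and 7 in DTL2 (6 under both scalings). The sodium pump subunit Atp1b3 averaged 64.4 TPM in PTS3 and 484 TPM in DTL2 (-2.91, SE 0.14), and 6 of the 7 pump and Fxyd genes at 10 TPM or more were higher in DTL2 under both scalings. The seventh, Fxyd2, averaged 4548 and 8060 TPM and was not called as deposited (-0.82, SE 0.20). Its direction turned after rescaling (0.15), while after quantile normalization all 7 were called higher in DTL2. Among 14 potassium and chloride channel genes, 10 were higher in DTL2 but 5 under both scalings, and 2 were higher in PTS3, of which Kcnj15 averaged 101 against 3.2 TPM. The channel median of -1.17 was close to the -1.13 over all genes at that level, and the counts under both scalings were near the 27.9% and 9.90% of all such genes.

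Most genes of the brush border and the endocytic apparatus were higher in PTS3. Of 26 at 10 TPM or more, 20 were higher in PTS3 and 5 in DTL2 (2 under both scalings), and the median difference was 3.65. Shares over all genes at that level were 9.90% for PTS3 and 53.1% (27.9%) for DTL2. The scaffold Pdzk1 was at 1631, 1322 and 1413 TPM in PTS3 and at 45.9, 3.1 and 5.08 TPM in DTL2 (7.82, SE 0.55), and the meprin protease genes Mep1a and Mep1b averaged 1291 and 617 against 18.3 and 8.23 TPM. The endocytic receptor genes Lrp2, Cubn and Amn averaged 34.2, 18.8 and 151 TPM in PTS3 and 1.18, 1.42 and 1.3 TPM in DTL2. Not all apical peptidases went this way. Enpep, aminopeptidase A, was at 1.07, 1.35 and 0.4 TPM in PTS3 and 137, 149 and 127 TPM in DTL2 (-6.29, SE 0.23), beside Anpep, aminopeptidase N, at 25 against 1.43 TPM (3.59, SE 0.33). Slc9a3r2, a scaffold of Slc9a3, was higher in DTL2 under both scalings (20.1 against 125 TPM), whereas the DTL2 calls of Dpp4, Mme and Ezr were lost after rescaling (-0.95, -0.36 and -0.40).

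Metabolic genes split by pathway and by isoenzyme. Of 14 gluconeogenesis and ammonia genes, 9 were higher in PTS3 and 3 in DTL2 (2 under both scalings). Pck1, the cytosolic phosphoenolpyruvate carboxykinase, was at 1802, 1122 and 661 TPM in PTS3 and 18, 3.51 and 3.65 TPM in DTL2 (7.74, SE 0.55), while the mitochondrial form Pck2 averaged 3.9 and 39.8 TPM (-3.17, SE 0.25). Of 19 glycolysis genes at 10 TPM or more, 16 were called, each higher in DTL2, 11 of them under both scalings. Among all genes at that level the DTL2 shares were 53.1% and 27.9%, and the PTS3 share was 9.90%. Hexokinase Hk1 was at 5.2, 3.56 and 4.71 TPM in PTS3 and 387, 369 and 418 TPM in DTL2 (-6.21, SE 0.25, adjusted p = 1.60e-24), and pyruvate kinase Pkm averaged 50.1 and 840.0 TPM (-4.06, SE 0.20). The aldolase gene Aldoc averaged 1.62 against 62.2 TPM (-4.78, SE 0.25). Gapdh and Ldha were not called as deposited (-0.35, SE 0.12, and 0.14, SE 0.15). After rescaling the difference of Ldha was 1.11 towards PTS3, so the size of a difference near 0 depends on the scaling.

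Fatty acid oxidation genes were divided. Of 27 genes at 10 TPM or more, 11 were higher in PTS3 and 6 in DTL2 (4 under both scalings), with a median of 0.66 as deposited and 1.62 after rescaling. The DTL2 counts were below the 53.1% and 27.9% of all genes at that level, and the PTS3 count was above the 9.90%. The medium-chain acyl-CoA synthetases Acsm1 and Acsm3 averaged 191 and 2325 TPM in PTS3 and 0.426 and 79.3 TPM in DTL2. Mouse 1 carried most of that Acsm3 mean, with 205, 7.87 and 25.2 TPM in DTL2 mice 1, 2 and 3. The dehydrogenase Acadm averaged 3569 and 386 TPM (3.27, SE 0.19). Acaa2, the mitochondrial thiolase, was at 1.68, 2.6 and 1.66 TPM in PTS3 and 326, 357 and 313 TPM in DTL2 (-7.14, SE 0.24, adjusted p = 1.15e-27). The long-chain synthetase Acsl1 and the fatty acid binding protein gene Fabp3 averaged 2.7 and 15.6 TPM against 96.4 and 404 TPM (-4.85, SE 0.25 and -4.67, SE 0.27). Of 33 peroxisomal genes, 16 were higher in PTS3, among them Acox2 (294 against 3 TPM), Ehhadh (673 against 30.7 TPM), Pipox (530.3 against 12.5 TPM) and catalase, Cat (668 against 105 TPM). The 1 listed gene higher in DTL2 was Pmp22, at 3.27 against 98.2 TPM; it encodes a peripheral myelin protein and not a peroxisomal one, so it was listed there in error. Of 24 cytochrome P450 and conjugation genes, 18 were higher in PTS3 and 4 in DTL2 (2 under both scalings), with Cyp4a10 at 419 against 1.93 TPM and Cyp7b1 at 1068 against 12.4 TPM, and with Gsta4 at 1.06 against 31.7 TPM the other way; Cyp4a, Gsta and Ugt copies may share reads. Of 14 genes linked to androgen in the male proximal tubule, 12 were higher in PTS3, with a median difference of 7.34 over the 14, Akr1c21 among them at 1570 against 21.9 TPM.

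The respiratory chain has mitochondrially and nuclear encoded subunits, which are given separately. The 7 mitochondrially encoded genes that were tested were higher in PTS3 (4 of them still called after quantile normalization), while the other 6 were listed at 0 in all 6 mice. Their summed level was 86715 to 119221 TPM in the PTS3 mice and 21269 to 22750 TPM in the DTL2 mice. mt-Nd1 was at 28857, 39712 and 30579 TPM against 6846, 6320 and 6550 TPM (2.32, SE 0.27, adjusted p = 9.49e-10). The rest of the proximal tubule did not share this level evenly. mt-Nd1 averaged 15150 TPM in PTS1 but 4586 TPM in PTS2, below the DTL2 mean of 6572 TPM. Its PTS3 minus PTS2 difference was 2.92 (SE 0.25, adjusted p = 1.18e-12). mt-Cytb was also lower in PTS2 than in DTL2, at 4168 against 5761 TPM. Of 78 nuclear genes of the chain at 10 TPM or more, 13 were called, each higher in DTL2, and 3 kept the call after rescaling, whereas quantile normalization gave 19 higher in DTL2. As deposited and under both scalings these counts are below the 53.1% and 27.9% of all genes at that level. The median was -0.42 as deposited, beside -1.13 over all genes at that level, and 0.55 after rescaling, where that of the mitochondrial genes was 3.12. The exception in size was Cox7a1, an isoform of a cytochrome oxidase subunit, at 4.56, 11.7 and 4.71 TPM in PTS3 and 1544, 1431 and 1616 TPM in DTL2 (-7.96, SE 0.37). Its counterpart Cox7a2 averaged 1237 and 2927 TPM (-1.24, SE 0.13), a call lost after rescaling (-0.27). Ppargc1a, a coactivator of mitochondrial genes, was at 2.96, 1.16 and 0.96 TPM in PTS3 and 270.1, 209 and 215 TPM in DTL2 (-6.49, SE 0.22).

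**Figure D4:**
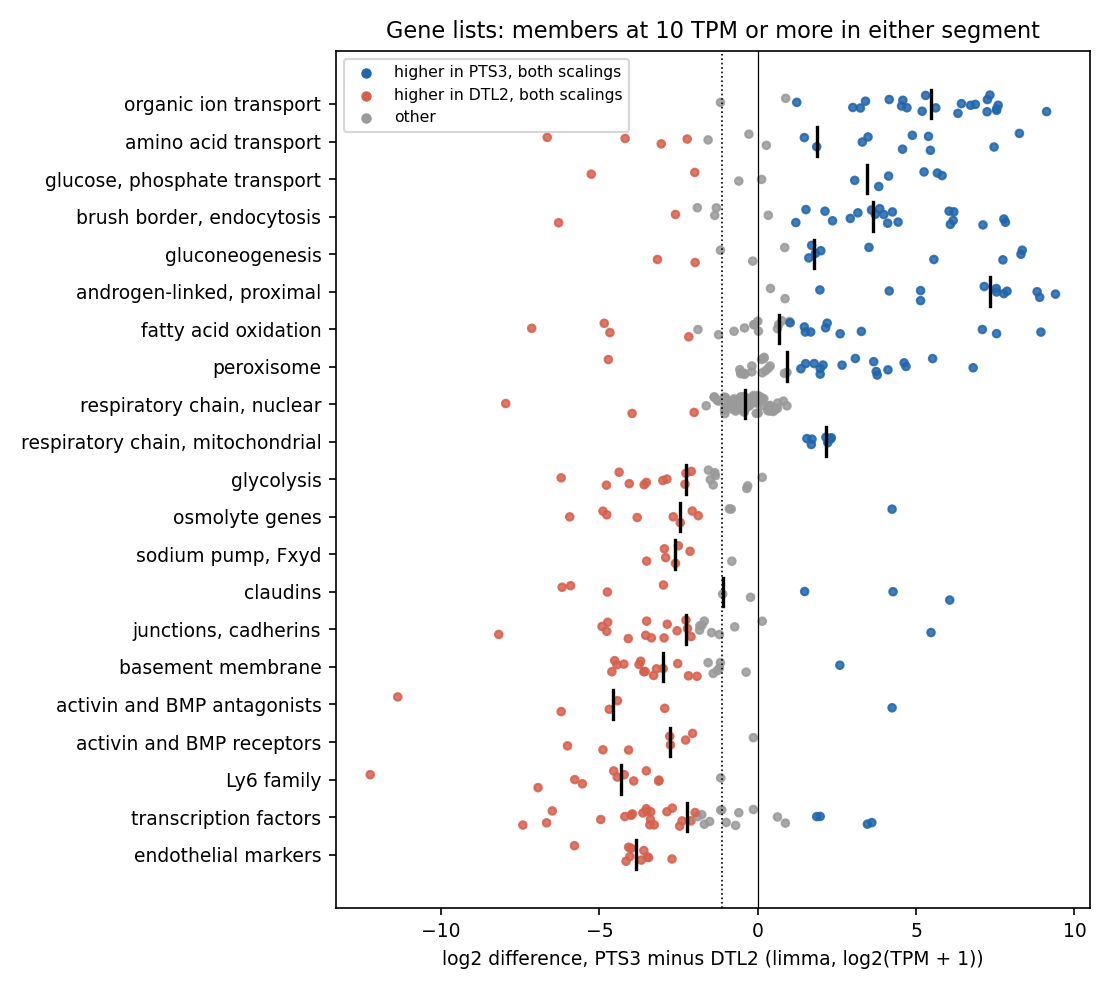
Log2 difference (PTS3 minus DTL2) of each member at 10 TPM or more of 21 of the 44 gene lists. Blue and red points were called higher in PTS3 and in DTL2 under both scalings, grey points were not; black bars are list medians and the dotted line is the median of -1.13 over all 9870 genes at that level. Of the lists shown, the androgen-linked genes and organic ion transport have the highest medians, 7.34 and 5.46, and activin and BMP antagonists the lowest.

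Most junction, keratin and basement membrane genes were higher in DTL2, while claudins differed in both directions. Of 9 claudins at 10 TPM or more, 3 were higher in PTS3 and 5 in DTL2 (4 under both scalings), the latter near the 53.1% over all genes at that level. Cldn10, which forms ion pores, was at 259.6, 230.3 and 266 TPM in PTS3 and 3.65, 5.96 and 1.56 TPM in DTL2 (6.06, SE 0.36), and Cldn3 averaged 112 and 5.6 TPM (4.27, SE 0.32). The third, Cldn1, averaged 10.6 and 3.32 TPM (1.48, SE 0.53, adjusted p = 0.0158), and its call was lost without DTL2 mouse 2 (1.33, adjusted p = 0.0594) or PTS3 mouse 1 (1.34, adjusted p = 0.0555). Cldn7 and Cldn8 ran the other way at 2.99 and 0.65 TPM against 188 and 129 TPM (-5.91, SE 0.22 and -6.18, SE 0.29). Cldn2, the cation and water pore claudin, was abundant on both sides, at 254 and 539 TPM, and its call (-1.11, SE 0.37) was lost after rescaling (-0.14). Cldn19 was at 23.5, 88.3 and 15.1 TPM in the DTL2 mice, with mouse 2 well above the others. Of 23 junction and cadherin genes, 20 were higher in DTL2 (14 under both scalings) and 1 in PTS3. Epcam, an epithelial adhesion protein, was at 30.2, 25 and 37 TPM in PTS3 and 845, 836 and 882 TPM in DTL2 (-4.77, SE 0.18), and the cadherins Cdh1 and Cdh16 averaged 12.1 and 266 TPM against 219.6 and 2705 TPM. Cdh13, a cadherin held by a lipid anchor, was at 0, 0.26 and 0 TPM against 323, 313 and 294 TPM (-8.18, SE 0.38). The 1 junction gene higher in PTS3 was the gap junction gene Gjb2, at 60.2 against 0.477 TPM (5.47, SE 0.26). Among 24 keratin and cytoskeletal genes 19 were higher in DTL2 (15 under both scalings), led by Krt7 at 0.178 against 107 TPM, and among 21 basement membrane and integrin genes 19 were (14 under both scalings), with Itga3 at 4.82 against 139.8 TPM; Itgb8 was the 1 higher in PTS3, at 15.9 against 1.82 TPM.

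Fst was not alone among genes of activin and bone morphogenetic protein (BMP) signalling, in which secreted ligands bind paired receptors that act through SMAD proteins. Of 22 listed ligands, 2 reached 10 TPM, Bmp4 at 51.8 and 39 TPM and Gdf15 at 13.1 and 28.6 TPM, and neither was called as deposited. The activin subunit gene Inhba stayed low, at 0.157 TPM in PTS3 and 2.79 TPM in DTL2. Of 6 antagonists at 10 TPM or more, 5 were higher in DTL2 under both scalings, and these included Nbl1 (0.35 against 94.4 TPM), Twsg1 (13.7 against 371 TPM) and Fstl3 (1.75 against 18.6 TPM) beside Fst. Chrdl1, the antagonist higher in PTS3, was at 47.8, 39.1 and 40.4 TPM against 2.44, 0.47 and 1.35 TPM (4.24, SE 0.29). Of 8 receptors, 7 were higher in DTL2 under both scalings, with Bmpr1a at 8.29 against 61.4 TPM and Acvr2a at 2.46 against 15.6 TPM; Acvr2b was not called (17.5 and 19.4 TPM). Of 13 SMAD and target genes, 11 were higher in DTL2 (10 under both scalings). Over all genes at 10 TPM or more, 53.1% were higher in DTL2 as deposited and 27.9% under both scalings. Id3, a target of BMP signals, was at 8.3, 14 and 7.6 TPM in PTS3 and 662, 672 and 654 TPM in DTL2 (-6.18, SE 0.33), the 3 DTL2 mice lying close together. Id3 was higher still in DTL1, at 3116 TPM. Acvrl1 and Eng, receptors also known from endothelium, averaged 1.73 and 4.1 TPM in PTS3 and 131 and 75.9 TPM in DTL2.

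Lypd2 likewise had relatives in DTL2. Of 12 Ly6 family genes at 10 TPM or more, Lypd2 itself included, 11 were higher in DTL2 under both scalings. The share over all genes at that level was 27.9%. Lynx1 was at 0.58, 0.815 and 0 TPM in PTS3 and 203, 203 and 114 TPM in DTL2 (-6.94, SE 0.23), and Lypd6b was listed at 0 in PTS3 and averaged 55.9 TPM in DTL2. Plaur, the urokinase receptor, averaged 2.77 and 174 TPM (-5.54, SE 0.33). Ly6a, Ly6c1 and Ly6e, near-identical in part and known from endothelium and blood cells, averaged 44.9, 46 and 58.8 TPM in PTS3 and 638, 870.2 and 779.9 TPM in DTL2. Ly6a was at 416, 969.9 and 529.8 TPM in the 3 DTL2 mice, highest in mouse 2.

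Markers of other cells were summed in each mouse, and endothelial markers were higher in DTL2. Of 13 endothelial markers, 12 averaged 1 TPM or more in DTL2 and 10 in PTS3, and their summed level was 1763 to 2905 TPM in the DTL2 mice and 94.8 to 185 TPM in the PTS3 mice. Plvap averaged 1011 and 72.5 TPM, Esam 391 and 8.24 TPM, Pecam1 79.1 and 6.43 TPM, Kdr 39.2 and 6.24 TPM, and Cdh5 5.55 and 0.212 TPM in DTL2 and PTS3. No endothelial marker was listed at 0 in all mice of either segment. Esam did not follow Plvap and Tek along the loop. It averaged 619.6 TPM in the thin and 242 TPM in the medullary thick ascending limb, beside 136 and 167 TPM for Plvap and 9.62 and 14.4 TPM for Tek. Leukocyte markers summed to 282 to 401 TPM in DTL2 and 104 to 165 TPM in PTS3, with Ptprc and Cd3e listed at 0 in PTS3; of 6 at 10 TPM or more, 4 were called higher in DTL2, of which 1 kept the call after rescaling, and the list had no call at that level after quantile normalization. Thick limb markers summed to 322 to 463 TPM in DTL2, of which Ppp1r1a alone averaged 326 TPM and Umod 19.9 TPM, and to 1.83 to 3.81 TPM in PTS3. Collecting duct markers summed to 15.8 to 22.7 TPM in DTL2, most of it Fxyd4 at 14.3 TPM, and to at most 0.925 TPM in PTS3, where Aqp2 and Aqp3 were listed at 0. Glomerular markers summed to 40.8 to 54.3 TPM in DTL2, chiefly Podxl (28.1 TPM) and Synpo (15.6 TPM), while the podocyte gene Nphs1 averaged 0.436 TPM. In PTS3 the glomerular markers summed to 0.88 to 2.23 TPM. Short limb markers summed to 2.98 to 9.49 TPM in DTL2 and 0.305 to 1.76 TPM in PTS3, and stromal and muscle markers to 21.8 to 39.8 and 5.98 to 12.6 TPM, led in both segments by Cspg4 (4.44 and 6.79 TPM). Erythroid markers summed to at most 1.69 TPM in DTL2 and 0.535 TPM in PTS3; none of these last lists had a gene at 10 TPM. The part of these cells in the DTL2 calls, those of the Ly6 family, the receptors Acvrl1, Eng and Tek, the Notch genes and the basement membrane list included, was not tested.

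Listed transcription factors differed in both directions. Of 36 listed factors at 10 TPM or more, 27 were higher in DTL2 (20 under both scalings) beside 53.1% (27.9%) of all genes at that level, and 4, near the background of 9.90%, in PTS3, among them Hnf4a, Cebpb (123 against 11.5 TPM) and Klf15 (102 against 27.2 TPM). The epithelial factors Ehf and Grhl2 averaged 0.128 and 0.00667 TPM in PTS3 and 117 and 30.8 TPM in DTL2 (-6.67, SE 0.33 and -4.96, SE 0.20), and the nephron factors Pax2 and Pax8 averaged 0.263 and 109 TPM against 13.5 and 629 TPM. Of 10 Hox genes at 10 TPM or more, 7 were higher in DTL2, but 3 kept the call after rescaling, near the 27.9% of all genes at that level, and the list's median was -1.29 beside -1.13, with Hoxb7 at 31.9 and 172 TPM (-2.40, SE 0.19; -1.45 rescaled) and Hoxb6 at 21.1 and 64.4 TPM (-1.57, SE 0.13; -0.63 rescaled, below the minimum difference). Of 6 Notch pathway genes, 5 were higher in DTL2 under both scalings, the ligand Jag1 at 0.273 against 27.5 TPM among them.

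Hormone and purine receptors were divided between the segments. Of 12 at 10 TPM or more, 4 were higher in PTS3 and 6, near the background of 53.1%, in DTL2 (5 under both scalings), and the list's median turned from -0.51 as deposited to 0.42 after rescaling. Pth1r, the parathyroid hormone receptor, was at 614, 471 and 546 TPM in PTS3 and 7.22, 2.35 and 1.43 TPM in DTL2 (7.26, SE 0.32), and the growth hormone receptor Ghr averaged 1930 and 56.7 TPM (5.33, SE 0.48). The adenosine receptor Adora1 was listed at 0 in the 3 PTS3 mice and at 218, 195 and 168 TPM in DTL2 (fitted difference -7.60, SE 0.27), and the nucleotide receptor P2ry2 averaged 5.32 and 89 TPM (-3.90, SE 0.29). Egfr, Erbb2 and Erbb3, receptors for epidermal growth factor and its kin, averaged 9.15, 5.72 and 9.37 TPM in PTS3 and 31.1, 26.9 and 25.8 TPM in DTL2. The calls of Egfr and Erbb3 were lost after rescaling (-0.74 and -0.47). After quantile normalization those of Egfr, Erbb2 and Erbb3 were all lost (-0.48, -0.83 and -0.18).

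Most osmolyte genes were higher in DTL2, and some differed between the DTL2 mice. Of 11 osmolyte genes, 8 were higher in DTL2 under both scalings and 1 in PTS3. Slc6a12, the betaine carrier, was listed at 0 in PTS3 and at 46.6, 43.6 and 113 TPM in DTL2 (fitted difference -5.94, SE 0.51). The inositol carrier Slc5a3 was at 1.21, 0.99 and 0.47 TPM against 49.1, 26.9 and 114 TPM (-4.89, SE 0.36), and aldose reductase, Akr1b3, at 53.4, 46.2 and 53.7 TPM against 154, 114 and 594 TPM (-2.07, SE 0.29). In these 3 genes DTL2 mouse 3 was the highest, while Nfat5, the factor that activates osmolyte genes, was at 58, 44.4 and 48.9 TPM in DTL2 with mouse 1 the highest and at 2.44, 2.39 and 3.49 TPM in PTS3 (-3.81, SE 0.18). Sord, which converts sorbitol to fructose, was the gene higher in PTS3, at 828 against 45.6 TPM (4.24, SE 0.29). The hypoxia factor Hif1a was at 11.4, 7.57 and 9.94 TPM in PTS3 and 275, 181 and 450.2 TPM in DTL2 (-4.75, SE 0.22); of 16 hypoxia-linked genes, 9 were higher in DTL2 (6 under both scalings) and 2 in PTS3, Car9 at 54.5 against 2.2 TPM and Ndrg1 at 211 against 49.5 TPM. These counts are near the shares over all genes at 10 TPM or more, 53.1% and 9.90%. Early-response and heat shock genes, which also respond to handling of tissue, summed to 1097 to 1641 TPM in the DTL2 mice and 172 to 184 TPM in the PTS3 mice. Of 15 at 10 TPM or more 12 were higher in DTL2 (8 under both scalings), among them Hspa1b at 5.9 against 427 TPM, highest in DTL2 mouse 3 at 700.2 TPM. The part of handling in these differences was not tested.

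PTS3 transcripts did not vanish evenly from DTL2. The 50 most abundant genes called higher in PTS3 under both scalings, taken among those that separated all 6 mice and without predicted, mitochondrial, ribosomal and pseudogene names, had DTL2 levels at a median of 5.71%, 2.04% and 2.82% of the PTS3 mean in mice 1, 2 and 3. In 27 of them the mean was below 5%, and each of these 27 was highest in mouse 1, with medians of 2.44%, 0.463% and 0.533% over the mice. Within mouse 1 the excess came from 1 of its 2 pieces, in which the 27 genes had a median of 4.65% and Kap was at 852 TPM, while the other piece had 0.149% and 30.7 TPM. Over the other 5 DTL2 pieces that median ran from 0.101% to 1.09%. The other 23 genes had medians of 26.2%, 22.3% and 20.5%, closer to each other over the mice, and included Fth1 (19.1% to 21.3%), Acadm and Cd63. The number of genes and the boundary of 5% were set after the values were seen, so the split is a description. The number used at first was 40, for which the medians were 9.73%, 6.57% and 5.71%, and they depend on that number. They were 9.08%, 5.02% and 4.2% for the 30 most abundant genes and 6.27%, 2.37% and 3.15% for the 60 most abundant, also chosen after seeing the data. Each gene with a mean below 5% was highest in mouse 1 there too (15 of 15 with 30 genes, 18 of 18 with 40 and 31 of 31 with 60). Without DTL2 mouse 1, 985 genes were called higher in PTS3 and 5189 higher in DTL2 at 10 TPM or more.

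**Figure D5:**
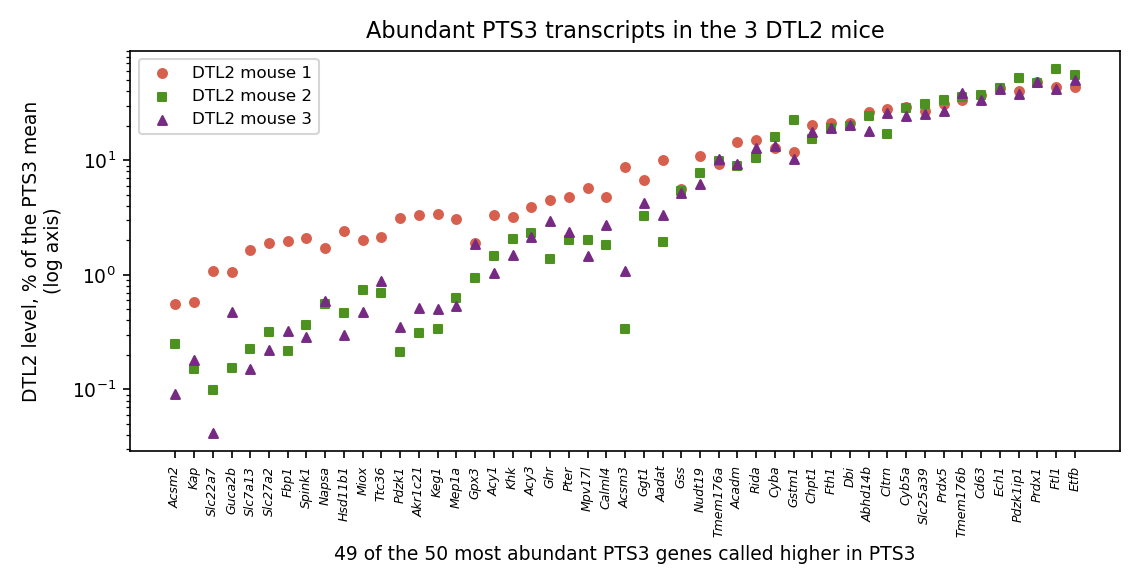
Level of 49 of the 50 most abundant genes called higher in PTS3, in each of the 3 DTL2 mice, as a percentage of the PTS3 mean (log axis), ordered by the mean over the mice. On the left DTL2 mouse 1 lies above both other mice, and on the right the mice lie close together.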

How the data were processed

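Abundances in the deposited table are TPM, for 54532 genes and 93 samples of microdissected tubule or glomerulus. Per the submitters' processing notes, STAR 2.5.4a and RSEM 1.3.0 were among the tools used; the genome build and annotation are not given in the sources used here. Per the labels' protocols, cDNA came from a SMARTer V4 low-input kit and libraries from Nextera XT. TPM keep no read depth, so depth is unknown and no counting interval is given. Because TPM are relative, abundant transcripts lower the values of all others in a sample. A further 3 single-cell samples were not analysed here.

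Each column was matched to its sample by name, except that 1 PTS2 column whose piece letter fits no sample title entered the fit as an unnumbered PTS2 mouse. The replicate was the mouse: log2(TPM + 1) was averaged over its pieces, for 53 mice and 15 groups. Genes at 1 TPM or more in at least 3 mice were kept, and all mice entered a limma fit (version 3.58.1, R 4.3.3) with a trend in the prior variance; 3 mice against 3 cannot go below p = 0.10 in an exact permutation test, so no such test was used. Adjusted p-values are Benjamini-Hochberg over all 33793 genes, two-sided, and a log2 difference understates the change of low genes. Per-mouse TPM in the text are plain means of the pieces.

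Named genes were the 12 largest differences in each direction with complete separation of the 6 mice and 10 TPM or more in the higher segment, the 5 largest TPM differences in each direction under the same conditions, Lypd2, Fst and Aqp1, and up to 4 called members per direction of 44 gene lists; predicted, mitochondrial, ribosomal and pseudogene names were passed over in both groups. Some genes that met these rules are not reported here. Further list members were named to show the order within a family, after their values were seen. The members, lists and tests were chosen with earlier results of these data known. The fit was tested on simulated data. Promoters and start sites are from RefSeq (GRCm38.p6), matched by symbol. Alternatives covered pseudocounts of 0.1 and 5, filters, scaling, the averaging of pieces, blocks and leaving out each mouse.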

Additional observations from a re-analysis of the deposited data

How the results depend on the processing

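Of 17 alternatives, none reversed the direction of any of the 197 genes named by rule (0 of them). All 197 were called as deposited and separated the mice of the segments completely, so a reversal was unlikely from the start. Further list members named in the text were not part of this count. Fxyd2 was among these, and its direction turned after rescaling. The number of genes called stayed within 1.5 times the reported counts for 2 segments alone, the mouse as a random block, both filters, protein-coding genes and averaging as TPM. A pseudocount of 0.1 gave 20430 calls, 19024 of them higher in DTL2, and a pseudocount of 5 gave 6216 and 5249. Median ratio rescaling gave 2565 calls higher in PTS3 and 7000 higher in DTL2, and at 10 TPM or more 1973 and 2750. Quantile normalization gave 6716 calls, 3249 higher in PTS3 and 3467 in DTL2, and at 10 TPM or more 1564 and 2309. The cause of these shifts was not tested.

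Leaving out each mouse in turn gave 13064 to 13482 calls, 1255 to 1324 higher in PTS3 and 11764 to 12227 in DTL2, and at 10 TPM or more 945 to 1003 and 5100 to 5325. Of the genes named by rule, 13 lost their call after rescaling and 15 after quantile normalization. The immune genes Cd74 and C1qb, with adjusted p of 0.0452 and 0.035, lost it in several alternatives.

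The mouse number is shared between segments, but the study's design text counts 53 mice and the table holds 53 combinations of number and segment, so each combination was taken as 1 mouse. Deviations of same-numbered mice correlated at 0.005, 0.02 and -0.011. With the mouse number as a replicate block 12667 genes were called (1213 higher in PTS3, 11454 in DTL2). Every gene named by rule kept its call there (197 of 197).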

Other observations

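The tested mitochondrial genes of the table number 7 of 13, and the other 6 (mt-Nd3, mt-Nd4l, mt-Co2, mt-Co3, mt-Atp6 and mt-Atp8) are listed at 0 in every PTS3 and DTL2 mouse, although cells of both segments must use them. A value of 0 for a single gene in this table is therefore not by itself a measure of absence.

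DTL2 mouse 2 had higher values than the other DTL2 mice for some genes of other segments. The phosphate carrier Slc34a1 was at 1.05, 22.5 and 0.347 TPM and the glucose carrier Slc5a2 at 2.42, 6.55 and 0 TPM in DTL2 mice 1, 2 and 3. In PTS3 Slc34a1 was at 54.3, 41.6 and 36.7 TPM and Slc5a2 was listed at 0. The pattern differs from that of Kap, which was highest in DTL2 mouse 1, and it was not tested.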
